A study of Mus musculus with 4 samples.

Results

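The genes Snai1, Snai2, Zeb1, Zeb2 and Twist1 encode the transcription factors best known for driving epithelial to mesenchymal transition (EMT). All rows of the deposited ATAC-seq peak table whose gene name was one of these symbols were taken, which gave 39 of 70436 peaks: 8 for Snai1, 1 for Snai2, 14 for Zeb1, 10 for Zeb2 and 6 for Twist1. ATAC-seq measures open chromatin by the insertion of sequencing adapters by a transposase. The cells were melb-a, an immortal mouse line of melanoblasts, which are the embryonic precursors of pigment cells, and all were labelled wild type. They were infected with lentivirus for 16 hours with 8 µg/ml polybrene and selected with 1 µg/ml puromycin, in medium with 10 ng/ml SCF and 40 pM Fgf2. The Hira shRNA group held 2 libraries, labelled shHIRA I and shHIRA II (hairpins I and II), against Hira, which encodes a histone chaperone for H3.3, a variant placed in chromatin outside DNA replication. The control group also held 2 libraries, labelled shLuciferase (control 1) and shScramble (control 2). Each hairpin had 1 library, and the files hold no measure of Hira transcript or protein, so the knockdown could not be checked in them.

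Snai1 and Snai2 are zinc finger repressors that share an amino-terminal motif for recruiting corepressors. Zeb1 and Zeb2 are larger repressors with zinc finger clusters at both ends that bind the same kind of E-box, and Twist1 is a basic helix-loop-helix factor that binds E-boxes as a dimer. These factors act in the delamination and migration of neural crest cells, from which melanoblasts arise, and repress epithelial genes such as the E-cadherin gene Cdh1. In the pigment lineage their roles are not alike: Snai2 and Zeb2 are needed for normal melanocytes, and in human melanoma a switch towards ZEB1 and TWIST1 accompanies loss of differentiation.

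The promoters show the sequence context of the results that follow: the first 3 lie in or beside peaks that did not pass the test, and Twist1 had no peak at its promoter. Each is the 250 bases before an annotated start site, 5′ to 3′ on the gene's strand, from RefSeq for GRCm38.p6, the assembly called mm10. Entries were found for 3 of the 5 genes. Of the 4 Zeb2 entries, 2 that lie at promoter peaks are shown. The E-box CACCTG, which Snail and ZEB zinc fingers bind, and its reverse complement CAGGTG were searched, and capitals mark matches.
Snai1, chr2:167537945-167538194, plus strand: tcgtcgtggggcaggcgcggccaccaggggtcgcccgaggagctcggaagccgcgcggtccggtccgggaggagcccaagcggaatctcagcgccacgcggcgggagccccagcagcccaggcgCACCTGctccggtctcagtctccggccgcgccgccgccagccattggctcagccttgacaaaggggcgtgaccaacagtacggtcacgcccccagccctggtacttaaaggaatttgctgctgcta
Zeb2, outer start site, chr2:45117443-45117692, minus strand: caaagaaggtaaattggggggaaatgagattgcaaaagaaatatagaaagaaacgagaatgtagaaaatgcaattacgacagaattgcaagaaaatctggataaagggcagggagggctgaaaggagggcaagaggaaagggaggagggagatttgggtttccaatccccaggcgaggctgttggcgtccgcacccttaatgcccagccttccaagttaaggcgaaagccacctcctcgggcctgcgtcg
Zeb2, inner start site, chr2:45113280-45113529, minus strand: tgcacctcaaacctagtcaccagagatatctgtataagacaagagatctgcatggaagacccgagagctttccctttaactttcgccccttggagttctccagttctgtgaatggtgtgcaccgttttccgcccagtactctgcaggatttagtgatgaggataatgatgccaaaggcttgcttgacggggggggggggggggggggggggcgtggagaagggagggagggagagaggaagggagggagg
Twist1, chr12:33957421-33957670, plus strand: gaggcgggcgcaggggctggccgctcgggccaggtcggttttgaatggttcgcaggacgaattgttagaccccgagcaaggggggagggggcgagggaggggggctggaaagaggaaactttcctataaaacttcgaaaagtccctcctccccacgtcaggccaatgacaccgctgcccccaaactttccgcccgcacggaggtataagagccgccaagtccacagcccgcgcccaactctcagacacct
The Snai1 window held 1 CACCTG, which is also the only match in it to the general E-box CANNTG. The 3 other windows held 0 matches to either. Of all 32851 RefSeq promoter windows of that length, 17.2% held CACCTG on either strand and 66.2% held CANNTG. The Snai1 window had 27 CpG dinucleotides and the Twist1 window 18, against 9 and 6 in the outer and inner Zeb2 windows and a median of 6 over all windows.

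Tags in peaks numbered 14718721 and 8910983 for hairpins I and II and 20716859.5 and 15804532 for controls 1 and 2, so precision was lowest under hairpin II. Between the control libraries the differences were smaller than sampling noise gives (chi-square of 0.933 per peak, against 6.24 for the Hira pair), so their tags were summed and they were counted as 1 sample. Levels are in CPM, the usual depth-scaled tag count, with library sizes corrected by TMM factors, and are given as the Hira mean ± SD (n = 2) and the level of the summed controls (n = 1). Peaks were called at a Benjamini-Hochberg adjusted p under 0.05 over all peaks in edgeR's quasi-likelihood test, with the newer dispersion estimate. P-values reflect the scatter of these libraries alone, where hairpin, culture and technical differences cannot be told apart. Of 12 melanocyte lineage genes 9 had a peak within 1 kb of a start site, with Pmel, Mlana and Ednrb without one. Their summed level was 291 and 300 CPM under hairpins I and II and 338 and 324 CPM in controls 1 and 2. Single genes went both ways: Dct had 14.2 and 23.2 CPM under hairpins I and II, against 42.7 and 39.4 CPM in controls 1 and 2. Sox10 had 32.4 and 27.5 CPM under hairpins I and II, against 22.6 and 23.8 CPM in controls 1 and 2. None of 6 keratinocyte or 5 immune marker genes had such a peak. For fibroblast markers, 3 of 8 genes had one, with a summed level of 80.4 and 70.4 CPM under hairpins I and II and 62.9 and 58.1 CPM in controls 1 and 2. Of these, Pdgfra and Twist2 were above both controls under both hairpins, and Dcn overlapped the controls. For endothelial markers, 2 of 5 had one, at 19.4 and 9.79 CPM under hairpins I and II and 7.59 and 7.07 CPM in controls 1 and 2. For Schwann cell markers, 5 of 6 had one, at 117 and 128 CPM under hairpins I and II and 118 and 125 CPM in controls 1 and 2. A part of other cell types in the results below was not tested.

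Under Hira shRNA no peak at the start sites of these genes was called, and all called changes lay at distal peaks. Calls at promoters were rare in general, at 2.03% of all 7588 promoter peaks. Of the 39 peaks, all of which entered the test, 4 rose and 5 fell. Across all peaks 8.46% rose and 5.68% fell, 14.1% in all. The called share over the 5 genes was 23.1%, and with 39 peaks the difference from the background rests on a few peaks. Snai1 had 3 of the 4 rises, Zeb1 had 1 rise and 2 falls, Zeb2 had 2 falls, Twist1 had 1 fall, and Snai2 had neither. The median log2 fold change was −0.01 over the 39 peaks and 0.00 over all peaks, while the single values ran from −2.08 to 4.09. No peak was called without control 1 (smallest adjusted p over all peaks 0.057, with 17958 at an unadjusted p under 0.05) or with edgeR's legacy quasi-likelihood estimate (0.0704, with 15562), while all 9 were called with the controls kept as 2 libraries, under the newer and under the legacy estimate alike. All 9 kept their direction in each of these fits and with either hairpin left out. The counts of alternative fits given for single peaks below cover the legacy estimate with the controls summed or apart, the likelihood ratio test, DESeq2, changes of scaling, filter and rounding, and either control left out. Where 9 fits are counted in place of 10, DESeq2 gave no adjusted p for that peak.

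**Figure D1:**
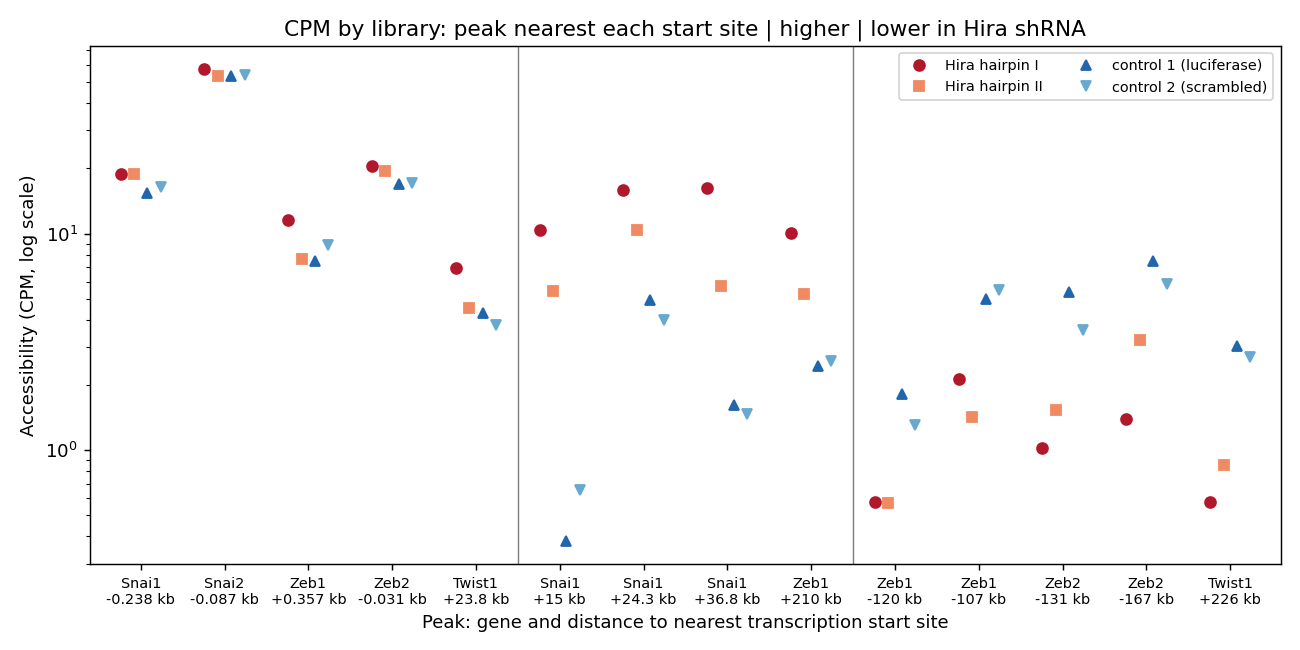
Accessibility in CPM (log axis) of the peak nearest the start site of each gene (left), the 4 peaks that rose (middle) and the 5 that fell (right), labelled by signed distance to the nearest start site; each symbol is 1 library. At the called peaks both Hira libraries lie outside the range of the controls, as at 68.8% of all peaks. The same holds at the uncalled peaks nearest the Snai1, Zeb2 and Twist1 start sites. At the peaks nearest the Snai2 and Zeb1 start sites the groups overlap.

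The test made no call at any peak within 10 kb of a start site. There were 9 such peaks, with log2 fold changes from −0.30 to 0.85, and over all peaks 8.61% of those within 10 kb were called. Between 10 and 100 kb, 3 of 11 peaks were called, all of Snai1, against 16.9% of all peaks at that distance. Beyond 100 kb, 6 of 19 were called (31.6%), against 19.5% of all peaks. The 9 called peaks had 0.501 to 6.77 CPM in the controls, where the median of all peaks was 6 CPM. Of the 9, 8 were intergenic, as were 14 of the 30 members that were not called and 28704 of all 70436 peaks. The intergenic share of all called peaks was not counted. None of the 10 member peaks above 10 CPM in the controls was called. The called share of all peaks above that level was not counted, so this cannot be read as particular to these genes. The annotation named a repeat at 1 of the 9, a Snai1 peak, and at 5 of the 30 peaks that were not called. It named one at 10798 of all peaks.

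**Figure D2:**
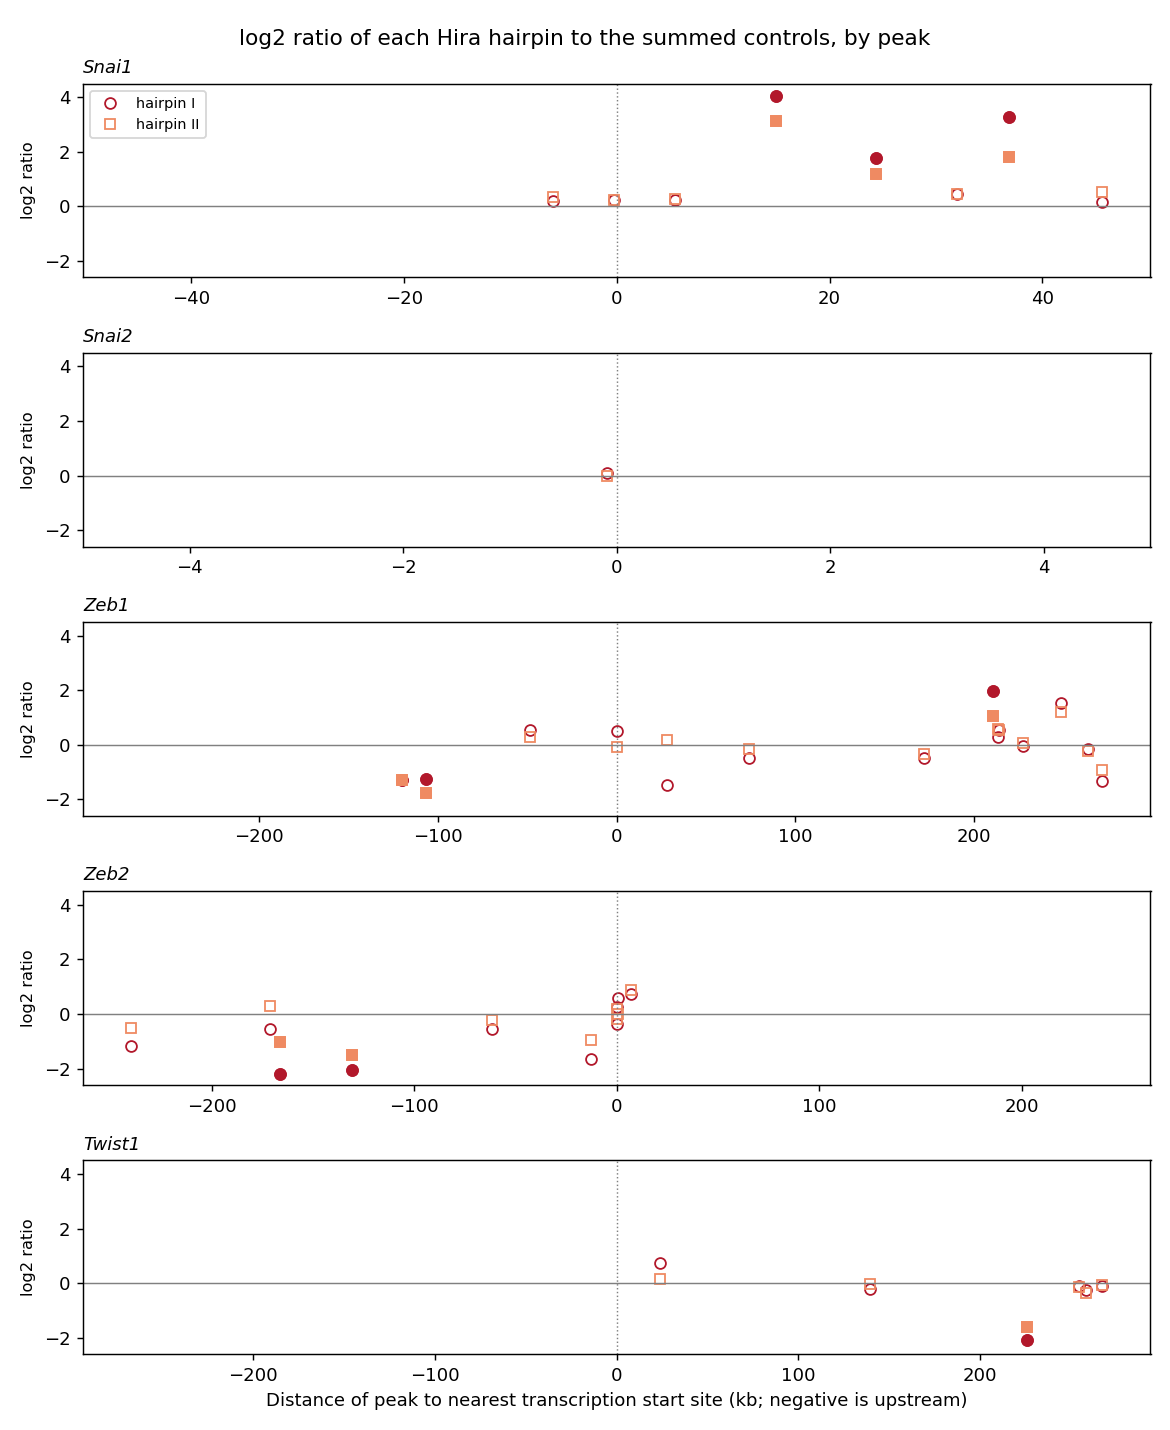
The log2 ratio of hairpin I (circles) and hairpin II (squares) to the summed controls for each peak, by distance to the nearest annotated start site in kb (negative is upstream; each panel has its own axis range); filled symbols are the 9 called peaks. The 3 called Snai1 peaks lie 15.0 to 36.8 kb downstream, and the called Zeb2 peaks 131 and 167 kb upstream.

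Snai1 had 3 peaks that rose, all downstream of the gene, and its promoter peak was not called; promoter and downstream peaks were not tested against each other. Its promoter peak (chr2:167537712-167538202), which holds the E-box shown above, had 18.8 CPM under hairpin I and 18.8 under hairpin II, against 15.4 and 16.4 CPM in controls 1 and 2. Both Hira libraries were slightly above both controls, and the difference did not pass (log2 fold change 0.25, SE 0.23, edgeR adjusted p = 0.56). A strong peak just past the 3′ end of the gene, 5.43 kb from the start site, had 64.5 and 66.9 CPM under hairpins I and II, against 55.5 and 54 CPM in controls 1 and 2 (0.26, SE 0.15, adjusted p = 0.298).

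The first called Snai1 peak (chr2:167552726-167553605) lay 15.0 kb from the start site and 9.91 kb past the 3′ end, in an L1MB7 element of the L1 family of LINE retrotransposons. It had 10.4 CPM under hairpin I and 5.41 under hairpin II, against 0.382 and 0.657 CPM in controls 1 and 2, from 153 and 47.5 tags against 8 and 10.5 tags. It was thus close to closed in the controls and open under both hairpins, more so under hairpin I. The level was 7.88 ± 3.5 CPM in Hira shRNA, against 0.501 CPM in the controls (SE 0.62 on a log2 fold change of 4.09, adjusted p = 0.0247). Its fold change ranked 19 from the highest of 70431 peaks. This call held in 8 of 10 alternative fits, with adjusted p from 3.79e-09 to 0.0704.

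The second (chr2:167562185-167562842) lay 24.3 kb from the start site, in intergenic sequence. It had 15.9 and 10.4 CPM under hairpins I and II, against 4.92 and 4.01 CPM in controls 1 and 2. Both hairpins lay above both controls (log2 fold change 1.59, SE 0.35, adjusted p = 0.0294). The call was kept in 6 of 10 alternative fits, with adjusted p from 0.00658 to 0.0884. The third (chr2:167574869-167575181), 36.8 kb from the start site, had 16.3 CPM under hairpin I and 5.75 under hairpin II, against 1.62 and 1.47 CPM in controls 1 and 2. Hairpin I was well above hairpin II: the mean was 11 ± 7.43 CPM in Hira shRNA, against 1.56 CPM in the controls (log2 fold change 2.91, SE 0.61, adjusted p = 0.0268), and the log2 value was 1.85 with hairpin II alone and 3.37 with hairpin I alone. It was called in 8 of 10 alternative fits, with adjusted p from 7.37e-07 to 0.0735.

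Between these sites stood a stronger peak that was open in all libraries. It lay 32.0 kb from the start site and had 44 and 43.4 CPM under hairpins I and II, against 32.5 and 30.9 CPM in controls 1 and 2 (log2 fold change 0.46, SE 0.17, adjusted p = 0.119). The peaks at either end of the Snai1 stretch, 5997 bases upstream and 45.6 kb downstream, gave log2 fold changes of 0.26 (SE 0.39) and 0.36 (SE 0.39). In all 8 Snai1 peaks both Hira libraries were above both controls, which was so at 34.5% of all peaks. The library sizes implied by the authors' deposited fold changes, called the authors' scaling here, lower the median of all peaks to −0.298 and turned the promoter value to −0.05.

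The peaks that follow on either side were assigned to other genes. The nearest upstream, 18.7 kb away and assigned to the ubiquitin ligase gene Rnf114, gave 0.28 (SE 0.40, adjusted p = 0.721). Downstream, the Ube2v1 peak 2.17 kb beyond the last Snai1 peak gave 0.43 (SE 0.32, adjusted p = 0.45), and one 10.4 kb beyond it rose, with 27.3 and 22.8 CPM under hairpins I and II, against 12.9 and 12.5 CPM in controls 1 and 2 (0.99, SE 0.24, adjusted p = 0.0348). Within 250 kb of the Snai1 start site, 8 of 56 peaks of other genes rose and 1 fell, beside 3 and 0 of the 8 Snai1 peaks.

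Snai2, known for its part in melanoblast migration and survival downstream of Kit, had 1 peak, which covered its promoter (chr16:14704999-14706531). It had 57.2 and 53.6 CPM under hairpins I and II, against 53.2 and 53.7 CPM in controls 1 and 2. The groups overlapped, and the log2 fold change was 0.05 (SE 0.16, adjusted p = 0.877), with −0.24 under the authors' scaling and 0.00 and 0.10 with hairpin II or hairpin I alone. The next peaks in the table lay 211 kb to the left and 113 kb to the right of it. The one to the right, assigned to Efcab1, rose, with 12.8 and 5.63 CPM under hairpins I and II, against 1.60 and 1.28 CPM in controls 1 and 2 (2.75, SE 0.55, adjusted p = 0.0254). That peak was named after its value was seen. Within 250 kb of the Snai2 start site, 1 of 8 peaks of other genes rose and 1 fell. The fall lay 235 kb to the left, with 0.643 and 0.398 CPM under hairpins I and II. Controls 1 and 2 had 2.51 and 3.29 CPM there (−2.23, SE 0.42, adjusted p = 0.0247).

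Zeb1, on chromosome 18, had changes in both directions, all far from its start site. The peak nearest the start site (chr18:5592536-5593473), 357 bases away, lay in intron 1 and was also annotated as the promoter of the noncoding gene Gm10125. It had 11.6 CPM under hairpin I and 7.63 under hairpin II, against 7.47 and 8.89 CPM in controls 1 and 2. Hairpin I was above both controls and hairpin II between them, and the log2 fold change of 0.31 (SE 0.34, adjusted p = 0.625) was 0.53 with hairpin I alone and −0.08 with hairpin II alone. The strongest Zeb1 peak, 227 kb from the start site and 43.5 kb past the 3′ end of the gene, stood at 98.7 and 106 CPM under hairpins I and II, against 103 and 102 CPM in controls 1 and 2 (−0.01, SE 0.13, adjusted p = 0.983).

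Upstream of Zeb1, both intergenic peaks assigned to it beyond the noncoding gene Gm10125 fell. At 120 kb (chr18:5471909-5472074) the peak had 0.576 and 0.569 CPM under hairpins I and II, against 1.81 and 1.31 CPM in controls 1 and 2. It is a weak peak, with 8.5 and 5 tags under hairpins I and II and 38 and 21 in the controls (log2 fold change −1.52, SE 0.37, adjusted p = 0.0356, from 2.61e-06 to 0.136 over 9 alternative fits, of which 6 kept the call). At 107 kb (chr18:5484988-5485441) the values were 2.13 and 1.42 CPM under hairpins I and II, against 5.01 and 5.48 CPM in controls 1 and 2. The log2 fold change was −1.49 (SE 0.41, adjusted p = 0.0491), just inside the threshold, and 4 of 10 alternative fits kept the call, with adjusted p from 9.06e-05 to 0.464. Farther upstream the next peaks, intergenic and assigned to Zfp438, went both ways. Those 30.4 and 52 kb beyond the Zeb1 peaks gave −0.94 and 0.57 and were not called. The peak 75.5 kb beyond them rose (2.95, SE 0.54, adjusted p = 0.0247).

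Downstream of Zeb1, the peak 27.5 kb past the 3′ end (chr18:5802921-5803369) rose. It had 10.1 CPM under hairpin I and 5.29 under hairpin II, against 2.44 and 2.57 CPM in controls 1 and 2. Both hairpins lay above both controls, hairpin I by more (log2 fold change 1.70, SE 0.46, adjusted p = 0.0457). The call was kept in 4 of 10 alternative fits, with adjusted p from 0.00506 to 0.194. The other 6 peaks of this 3′ stretch were not called: their log2 fold changes ran from −1.20, at the farthest peak, to 1.49. The peak at 1.49, 65.4 kb past the 3′ end, had 4.98 and 3.93 CPM under hairpins I and II, against 1.65 and 1.63 CPM in controls 1 and 2, with an adjusted p of 0.0528. Deeper in the gene, 3 intronic peaks were not called, with log2 fold changes of −0.64, −0.34 and −0.42. The first of them, in an ID4 SINE repeat, had 1.15 CPM under hairpin I and 3.81 under hairpin II, against 3.61 and 3.16 CPM in controls 1 and 2, so the hairpins stood on opposite sides of the controls.

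Zeb2, on chromosome 2, had 2 peaks that fell, both far upstream, and no call at its start sites. The peak at the inner start site (chr2:45112948-45113672), which covers the whole inner window shown above, had 20.6 and 19.5 CPM under hairpins I and II, against 17 and 17.2 CPM in controls 1 and 2. Both hairpins were slightly above the controls (log2 fold change 0.24, SE 0.23, adjusted p = 0.572; −0.06 under the authors' scaling). The peak at the outer start site (chr2:45117157-45117547), which covers 105 bases of the outer window, had 5.18 and 5.92 CPM under hairpins I and II, against 6.61 and 6.85 CPM in controls 1 and 2, slightly below the controls (−0.30, SE 0.35, adjusted p = 0.649). Inside the gene, a peak 778 bases from a start site had 9.72 and 6.49 CPM under hairpins I and II, against 6.45 and 6.42 CPM in controls 1 and 2 (0.39, SE 0.35), and one 6.94 kb from a start site had 3.08 and 3.47 CPM under hairpins I and II, against 1.46 and 2.28 CPM in controls 1 and 2 (0.85, SE 0.40, adjusted p = 0.2).

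The Zeb2 peak 131 kb upstream (chr2:45247892-45248182) fell. It had 1.02 and 1.54 CPM under hairpins I and II, against 5.37 and 3.60 CPM in controls 1 and 2, with no overlap (log2 fold change −1.89, SE 0.44, adjusted p = 0.0321; 0.0917 at most over 9 alternative fits, of which 7 kept the call). The peak 167 kb upstream (chr2:45283812-45284255) fell as well. It had 1.39 CPM under hairpin I and 3.24 under hairpin II, against 7.45 and 5.88 CPM in controls 1 and 2 (−1.72, SE 0.46, adjusted p = 0.0445), and the log2 value was −2.32 with hairpin I alone and −1.09 with hairpin II alone. Of 10 alternative fits, 5 kept this call, with adjusted p from 2.2e-05 to 0.373.

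A pair of further Zeb2 peaks lay just outside the threshold. The strongest peak of the gene, 240 kb upstream, had 15.8 CPM under hairpin I and 25.2 under hairpin II, against 37.5 and 34.1 CPM in controls 1 and 2 (log2 fold change −0.86, SE 0.26, adjusted p = 0.064). The peak 12.5 kb upstream had 0.508 and 0.911 CPM under hairpins I and II, against 1.58 and 2.25 CPM in controls 1 and 2 (−1.45, SE 0.41, adjusted p = 0.0514). In both, each Hira library was below each control. The other upstream peaks gave smaller values: at 171 kb the peak had 2.34 CPM under hairpin I and 4.27 under hairpin II, against 3.22 and 3.85 CPM in controls 1 and 2, on opposite sides of the controls (−0.19, SE 0.44, adjusted p = 0.838), and the peak at 61.7 kb gave −0.43 (SE 0.40, adjusted p = 0.561). Over the 10 Zeb2 peaks the Hira libraries were below both controls at 6 and above both at 3, against 34.3% and 34.5% of all peaks.

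An additional 2 peaks lay in intron 4 of Zeb2 and were assigned to the microRNA gene Mir5129, so they were not among the 39. One of them (chr2:45017450-45017834) fell: it had 0.745 and 2.50 CPM under hairpins I and II, against 7.57 and 8.04 CPM in controls 1 and 2 (log2 fold change −2.45, SE 0.45, adjusted p = 0.0247). Its neighbour (chr2:45019148-45020324) had 23.1 and 29.8 CPM under hairpins I and II, against 17.2 and 17.4 CPM in controls 1 and 2 (0.59, SE 0.24, adjusted p = 0.139).

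Twist1 had no peak over its gene body or promoter window: the peaks nearest to its start site in the table lay 106 kb to the left and 23.5 kb to the right. No peak at this depth does not show that the promoter was closed. The peak to the right (chr12:33981201-33981802) had 6.94 and 4.55 CPM under hairpins I and II, against 4.30 and 3.79 CPM in controls 1 and 2 (log2 fold change 0.55, SE 0.39, adjusted p = 0.411). The other 5 peaks assigned to Twist1 lay 139 to 267 kb away in introns of Hdac9, which encodes a histone deacetylase, so their assignment to Twist1 rests on distance to a start site alone. One of these, in intron 23 of the Hdac9 transcript (chr12:34183065-34183623), fell. It had 0.576 and 0.854 CPM under hairpins I and II, against 3.03 and 2.69 CPM in controls 1 and 2 (−2.08, SE 0.44, adjusted p = 0.0273). The call was kept in 7 of 9 alternative fits, with adjusted p of at most 0.0784. The 4 other intronic peaks gave −0.29 to −0.08 and were not called.

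Each hairpin was also set against the summed controls, which both ratios share, so they are not independent. Both Hira libraries were above both controls at 17 of the 39 peaks and below both at 15, with an overlap at 7; over all peaks the groups did not overlap at 68.8%. Hairpin I lay further from the controls at 29 of the 39 peaks, and at 46408 of all peaks. Both hairpins were at least 2-fold above the controls at 5 member peaks, with 8.19% of all peaks in that class, and at least 2-fold below at 5, with 5.71% of all peaks. The 9 called peaks were all among these 10, and the tenth was the Zeb1 peak with an adjusted p of 0.0528.

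**Figure D3:**
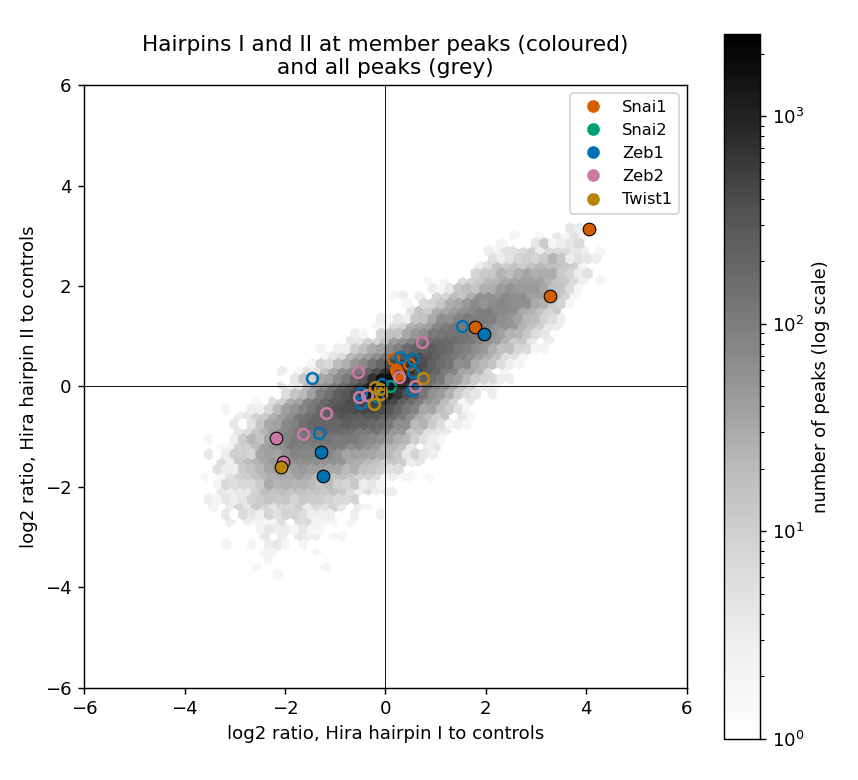
The log2 ratio of hairpin I (x axis) and hairpin II (y axis) to the summed controls, for the 39 peaks (coloured by gene, filled where called) over a density of all 70436 peaks in grey. The Snai1 peak 15.0 kb from its start site stands at the upper right end, at 4.05 and 3.13.

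Tags summed over all peaks of a gene gave 1 value for each gene. For Snai1 the sum was 174 and 155 CPM under hairpins I and II, against 114 and 111 CPM in controls 1 and 2 (log2 fold change 0.55, SE 0.13, edgeR adjusted p = 0.148 over 18478 genes). For Zeb2 it was 61 and 72.2 CPM under hairpins I and II, against 88.7 and 84.4 CPM in controls 1 and 2 (−0.39, SE 0.14, adjusted p = 0.237). The Zeb2 sum was 66.6 CPM on average in Hira shRNA, against 86.9 CPM in the summed controls. Most of that difference lay in the uncalled peak 240 kb upstream, at 20.5 CPM in Hira shRNA against 36.1 CPM in the summed controls. The groups did not overlap in either gene, with the direction opposite, and neither sum passed. The share of all genes without overlap was not counted, while at single peaks it was 68.8% of all peaks. For Zeb1 the sums were 182 and 189 CPM under hairpins I and II, against 186 and 185 CPM in controls 1 and 2 (−0.01, SE 0.12). In the summed controls the uncalled peak 227 kb from the start site held 103 CPM. The called Zeb1 peaks held 1.6, 5.21 and 2.49 CPM there, so the sum says little about them. Twist1 gave −0.12 (SE 0.16), with 33.1 and 31.4 CPM under hairpins I and II, against 35.4 and 35.1 CPM in controls 1 and 2. No gene passed in this fit, 0% of 18478, with 3204 genes (17.3%) at an unadjusted p under 0.05. The likelihood ratio test called 766 genes and DESeq2 194. With the controls as 2 libraries, 3170 genes were called under the newer estimate and 2581 under the legacy one. Snai1 passed in the likelihood ratio test (adjusted p = 0.025) and with the controls as 2 libraries (edgeR adjusted p = 0.0185 under the newer estimate and 0.0222 under the legacy one), while DESeq2 gave 0.106 and the authors' scaling lowered its value to 0.27 (adjusted p = 0.715). Zeb2 passed with the controls as 2 libraries under the newer estimate (−0.40, adjusted p = 0.0406) and not under the legacy one (0.0503). A difference between the genes was not tested.

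**Figure D4:**
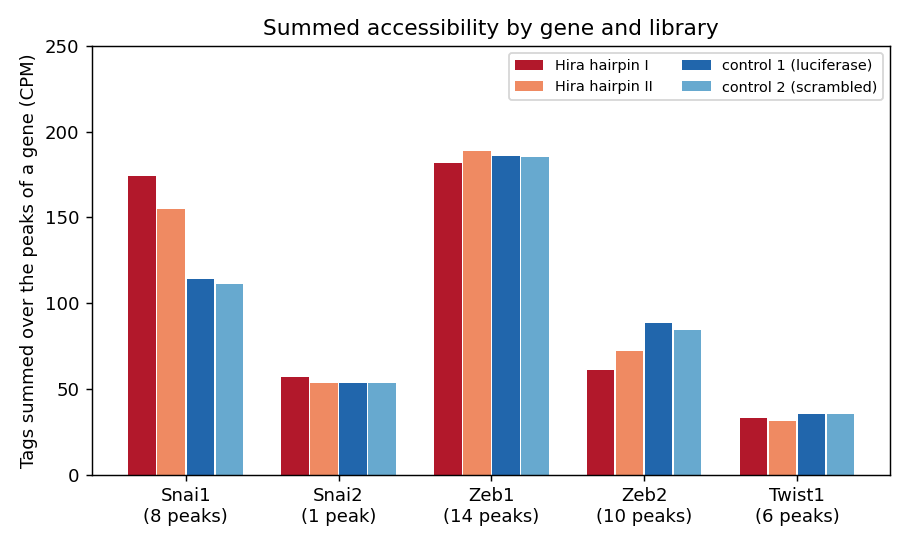
Tags summed over all peaks of each gene, in CPM, as 1 bar for each library. The Snai1 bars of hairpins I and II (174 and 155) stand above those of the controls (114 and 111), and the Zeb2 bars (61 and 72.2) below (88.7 and 84.4).

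Per kb of peak, summed accessibility was ordered alike in both groups. Snai2 was highest, at 36.1 CPM per kb in Hira shRNA and 34.9 in the controls. Snai1 followed at 31.4 in Hira shRNA and 21.4 in the controls, then Zeb1 at 20.9 in Hira shRNA and 21 in the controls, Zeb2 at 13.2 in Hira shRNA and 17.2 in the controls, and Twist1 at 7.85 in Hira shRNA and 8.58 in the controls. The order is a description with no test. The value of Snai2 comes from its promoter peak alone, so the order also reflects which kinds of peak each gene has.

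The authors' deposited table called 5 of the 39 peaks higher and 7 lower, against 8.48% and 11.8% of all peaks. Of these, 4 and 5 were the peaks called here. The other 3 in the authors' deposited table were the Zeb1 peaks 248 kb (authors' log2 fold change 1.16) and 271 kb (−1.40) from the start site and the Zeb2 peak 12.5 kb upstream (−1.80), which had adjusted p-values of 0.0528, 0.0756 and 0.0514 here. The authors' calls were not set by an adjusted p under 0.05 alone, so the cutoffs differ. The Zeb2 peak 240 kb upstream had −1.01 and an authors' adjusted p of 0.0251, and they did not call it. In the authors' deposited table the largest change of the 39 was also the Snai1 peak in the L1 repeat, with a log2 fold change of 3.65. The median log2 fold change of all peaks in the authors' deposited table was −0.25.

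Genes that act with these factors are given for context by counts of their peaks; no list was tested. Across all peaks 8.46% rose and 5.68% fell, which is the background for the lists and for the counts of single genes. Of 161 peaks of 21 other EMT-inducing transcription factors and coactivators, 16 rose (9.94%) and 4 fell (2.48%), with a median log2 fold change of −0.01. Snai3, another member of the Snail family, had a peak 1.01 kb upstream with 28.4 and 16.2 CPM under hairpins I and II, against 4.75 and 4.13 CPM in controls 1 and 2 (log2 fold change 2.36, SE 0.38, adjusted p = 0.0247). An intronic peak of Tcf4, an E protein that pairs with Twist proteins, rose to 1.72 ± 0.102 CPM, against 0.271 CPM in the controls. The hypoxia factor gene Hif1a had 1 rising and 2 falling of 15 peaks, the falls at 27 and 100 kb upstream (−1.57 and −1.29). Twist2, the closest relative of Twist1 and a dermal fibroblast gene, had 4 rising and 0 falling of 19 peaks, and Prrx1, another mesenchymal factor, 5 and 1 of 10.

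Epithelial genes include many that these factors repress. Of 118 peaks of 27 such genes, 17 rose (14.4%) and 5 fell (4.24%), beside 8.46% and 5.68% of all peaks, with a median of 0.07. A peak 68.6 kb upstream of Tjp1, which encodes a tight junction scaffold, rose to 7.97 ± 2.9 CPM, against 0.582 CPM in the controls (3.80, SE 0.57, adjusted p = 0.0247), and Tjp1 had 5 rising and 1 falling of 15 peaks. The fall (−1.83) was at a weak peak, with 0.271 and 0.285 CPM under hairpins I and II, against 0.955 and 0.845 CPM in controls 1 and 2. A peak of the claudin gene Cldn3 rose to 44.3 ± 4.84 CPM, against 18 CPM in the controls (1.31, SE 0.20), and the P-cadherin gene Cdh3 had 1 rising and 1 falling of 5 peaks, the fall being −1.51 (SE 0.36).

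Mesenchymal genes had 25 rising (15.1%) and 6 falling (3.61%) of 166 peaks, beside 8.46% and 5.68% of all peaks, with a median of 0.10. The fibroblast marker sums given above were higher under both hairpins, and a part of other cells in these counts was not tested. A peak in intron 1 of Mmp14, which encodes a membrane-bound matrix metalloproteinase, rose to 10.7 ± 2.44 CPM, against 1.61 CPM in the controls (2.75, SE 0.42, adjusted p = 0.0247). One 8.21 kb upstream of the collagen gene Col1a1 rose to 9.4 ± 3.56 CPM, against 0.935 CPM in the controls (3.41, SE 0.53), and a peak 36.5 kb upstream of Col1a2 fell to 0.306 ± 0.0499 CPM, against 3.79 CPM in the controls (−3.65, SE 0.49). Col1a2 had 1 rising and 2 falling of 12 peaks, the other fall lying in intron 30 (−1.05, SE 0.24).

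Corepressors and partners of the Snail and ZEB proteins had 11 rising (13.1%) and 6 falling (7.14%) of 84 peaks, with a median of 0.06. Over all peaks the shares were 8.46% and 5.68%. The promoter peak of Kat2b, which encodes a histone acetyltransferase, rose to 31.7 ± 6.01 CPM, against 6.66 CPM in the controls (2.27, SE 0.27, adjusted p = 0.0247), whereas 2.03% of all promoter peaks were called. A peak 7.29 kb upstream of Chd4, encoding the remodelling ATPase of the NuRD complex, rose (2.14, SE 0.35). Peaks 47.4 kb from Limd1, a LIM-domain partner of Snail proteins, and 22.7 kb from Eed, a Polycomb subunit, fell (−2.47 and −3.05). Their levels were 2.42 and 0.607 CPM in Hira shRNA, against 13.6 and 4.62 CPM in the controls. Upstream signals and turnover genes had 15 rising (9.38%) and 9 falling (5.62%) of 160 peaks, near the shares over all peaks, with a median of 0.01. Tgfbr1, a receptor for TGF-beta, had 5 rising and 0 falling of 10 peaks, and Tgfbr2, its partner receptor, had 1 rising and 1 falling of 10 peaks, the fall being intronic (−2.23, SE 0.43). That Tgfbr2 peak was weak, with 0.42 CPM in Hira shRNA, against 1.83 CPM in the controls. Smad3, a signal transducer of these receptors, had 2 rising and 2 falling of 16 peaks, with a rise of 2.71 (SE 0.47) at 79.1 kb upstream. Fbxw7, a ubiquitin ligase subunit, had a peak that rose (1.36, SE 0.27) and one that fell (−2.92, SE 0.48). The falling one had 0.618 CPM in Hira shRNA, against 4.25 CPM in the controls. The genes singled out by their number of called peaks were chosen after these were seen. Under the authors' scaling the falls exceeded the rises in 4 of the 5 lists.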

How the data were processed

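ATAC-seq libraries of melb-a cells carrying 2 Hira hairpins and 2 control hairpins were compared. Per the submitters' processing notes, mm10 and the tools MACS2 2.2.9.1, edgeR 3.38.4, cutadapt 2.3, Picard and Bowtie2 were used, with no roles given; removal of duplicates, transposase shift, merging of peaks and treatment of multiply mapped reads, which matters for repeats, are not given in the sources used here. The authors deposited estimated counts of tags in steps of 0.5, which were rounded. The authors also deposited log2 fold changes, mean log2 CPM, a likelihood ratio score and p-values, per the file headers. The authors' table names the Hira columns as knockouts; they were matched to hairpins by numeral.

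Peaks were tested with edgeR 4.0.16 (R 4.3.3; TMM, filterByExpr, two-sided quasi-likelihood test with the newer estimate), with the controls summed to 1 sample; 70431 of 70436 peaks entered. The spread thus comes from the Hira pair (coefficient of variation 0.235), and the lone control sample is assumed to vary like it. Each SE is the size of the log2 value divided by the root of its F statistic. Ratios per hairpin used a prior of 2 tags. The members, the lists, the test and the rule for named peaks (the peak nearest each start site, all called members, and the 2 lowest p-values per direction in each list) were chosen with earlier results of these data known; the summing of the controls and the newer estimate were likewise chosen knowing that they affect the number of calls. The authors' scaling was recovered by least squares on the deposited fold changes (46005 well-covered peaks, residual SD 0.0142 log2). On simulated data for the Hira comparison (70436 peaks, coefficient of variation 0.15), the test found 26 of 100 peaks given a log2 change of 1, 97 of 100 given 2, and 5 false ones. The Hira pair varied more than this. Changes were given only to peaks above a minimum expected tag count in the controls at the depth of hairpin II. The shares found thus do not cover the weakest called peaks, such as the Snai1 peak at 0.501 CPM in the controls. Alternatives were DESeq2 1.42.0 and other tests, scalings, filters and libraries. Figures were drawn with matplotlib 3.10.9. Intervals and tag counts cover counting error only, since tags are not independent molecules.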

Additional observations from a re-analysis of the deposited data

How the results depend on the processing

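The 9 calls at member peaks kept their direction in every alternative run. The rises and falls at the 39 peaks, 4 and 5 as reported (5956 and 3997 over all peaks), numbered 0 and 0 with the legacy estimate (all peaks 0 and 0) and 2 and 0 in DESeq2 (all peaks 2184 and 231). DESeq2 gave no adjusted p at the called falls 120 kb from Zeb1, 131 kb from Zeb2 and 226 kb from Twist1. Its log2 fold changes there were −1.53, −1.84 and −2.02, so these peaks could not be called in it. The likelihood ratio test gave 3 falls, and the authors' scaling 8 (13088 over all peaks). That scaling moved the share of rises among all called peaks to 34.4%, against 59.8% as reported. Leaving out a control gave 0 to 2 rises and 0 to 3 falls at members, and 0 to 2877 and 0 to 2022 over all peaks, with 0 throughout without control 1 and 5 of the 9 calls kept without control 2. The causes were not tested.

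With the controls as 2 libraries and the newer estimate, an alternative chosen after seeing the data, there were 7 rises and 9 falls (all peaks 11824 and 9944); with the legacy estimate as well there were 7 and 8 (all peaks 10127 and 7713). All 9 calls were kept in both. The deposited column names number the controls and the Hira libraries, but no label says that equal numbers share a batch, and same-numbered libraries did not deviate together (correlation of −0.017 over 46005 peaks). A block on that number, also added after seeing the data, gave 6 rises and 8 falls (all peaks 11888 and 10172), with summed tags of 0.55 for Snai1 (edgeR adjusted p = 0.00202) and −0.39 for Zeb2 (0.0183).

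With a hairpin left out and the controls summed, no degrees of freedom remain and values have no test: at least 2-fold falls numbered 9 for hairpin I alone and 5 for hairpin II alone, and rises 5 and 5. With the controls apart, also added after seeing the data, the spread comes from the 2 controls alone and the lone Hira library is assumed to vary like them, so these tests compare libraries: hairpin II alone gave 9 rises and 8 falls (all peaks 15232 and 13737), and hairpin I alone 15 and 12 (all peaks 22163 and 21659).

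For summed tags, Snai1 passed in the likelihood ratio test (0.55, adjusted p = 0.025) and with the controls apart (0.55; from hairpin II alone 0.46, from hairpin I alone 0.63), and did not under the authors' scaling (0.27, adjusted p = 0.715). Zeb2 passed with the controls apart and the newer estimate (−0.40; from hairpin II alone −0.28, from hairpin I alone −0.50). Signs turned for Snai2 under the authors' scaling (−0.24) and without hairpin I (−0.01), within −0.01 to 0.10 over libraries left out, and for Zeb1 without hairpin I (0.02), within −0.02 to 0.02. Values at start sites turned under the authors' scaling for Snai1 (−0.05), Snai2 (−0.24) and Zeb2 (−0.06), and without hairpin I for Zeb1 (−0.08; 0.53 without hairpin II). Counts in the 5 gene lists moved by over 1.5 times in several of these fits and were 0 with the legacy estimate and without control 1; the mesenchymal list had 22 rises and 33 falls under the authors' scaling. Depth limits the weakest peaks most, such as the Zeb1 peak with 5 tags under hairpin II.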
